A study of Mus musculus with 4 samples.

Results

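The 10 genes described here build the pathway that loads peptides onto MHC class I molecules. They are the light chain B2m, the heavy chains H2-K1 and H2-D1, the transporter subunits Tap1 and Tap2, the loading protein Tapbp, the immunoproteasome subunits Psmb8, Psmb9 and Psmb10, and the trimming peptidase Erap1. Every probe set that the platform annotation pairs with exactly 1 of these symbols was taken, which gave 10 of 18193 named genes and 28 of the 45037 probe sets on the array. Each gene had at least 1 probe set bright enough to be tested, and 22 of the 28 were tested. The other 6 had a mean intensity under the filter of 33.3, and their values on single arrays ran between 1.73 and 35.9.

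The study set mesenchymal stem cells (MSC, plastic-adherent stromal cells) of the colon beside those of the bone marrow. Colonic MSC came from the flushed colon (2 lines, 1 array each) and bone marrow MSC from marrow (2 lines, 1 array each). All 4 lines came from C57BL/6 mice, were cultured in medium with 10% serum and were lysed at a passage between 5 and 10, with no treatment named. The labels call the arrays biological replicates without saying whether the lines came from separate animals or which passage each array had. The p-values therefore measure the spread between these arrays. A difference between the arrays of a tissue is called one between lines below, and cannot be told apart from one of passage. The 4 arrays had medians between 53.6 and 55.5 and upper quartiles between 608 and 655. With so few arrays, every value has low precision. All 11 measured MSC markers passed the filter on the mean of the 4 arrays. Their summed intensity was 55349 and 55817 in colonic MSC and 50400.2 and 45135 in bone marrow MSC. Col1a2 and Col1a1 were the brightest, so the sum says little about the others. Alcam read 820 and 33.1 in colonic MSC and 84.4 and 89.1 in bone marrow MSC. Vcam1 read 286 and 52.4 in colonic MSC and 303 and 323 in bone marrow MSC, and Nt5e 209 and 27.6 against 76.3 and 27.9. Thy1, a defining MSC surface marker, read 4516 and 9032 in colonic MSC but only 32.8 and 22.04 in bone marrow MSC. These bone marrow values lay under the filter, so Thy1 passed it only because of its colonic arrays. Passing on the mean does not show that a marker was present in both tissues. Pdgfra, a growth factor receptor of stromal cells, read 492 and 743 in colonic MSC and 1609 and 2493 in bone marrow MSC. The adhesion receptors Cd44 (1466 and 686 in colonic MSC, 441 and 306 in bone marrow MSC) and Itgb1 (7990.5 and 5916 in colonic MSC, 4947 and 4402 in bone marrow MSC) read higher in colonic MSC. For a marker with several probe sets the one of lowest p is given, which favours wide differences. The brightest Cd44 probe set, 1434376_at, read 8532 and 6512 in colonic MSC and 6043 and 4867 in bone marrow MSC. Lymphocyte and dendritic cell markers, 2 of 8 above the filter, summed to 155 and 168 in colonic MSC and 164 and 175 in bone marrow MSC, and those above it, Cd8a and Ms4a1, were dim.

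Cells cut cytosolic proteins with the proteasome, and the transporter of Tap1 and Tap2 moves the resulting peptides into the endoplasmic reticulum. There Erap1 trims them, and Tapbp (tapasin) holds empty class I molecules at the transporter until a peptide is bound. The loaded molecule, a heavy chain paired with B2m, is shown at the cell surface to cytotoxic T cells. Interferon induces most of these genes, among them the 3 immunoproteasome subunits, which replace the constitutive catalytic subunits. Cultured MSC are known to display class I molecules and to lack class II molecules unless stimulated with interferon gamma.

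Of the 22 tested probe sets, 0 passed an adjusted p of 0.05 between colonic and bone marrow MSC (limma, Benjamini-Hochberg over 27022 probe sets). The background was the same, with 0% of all tested probe sets called. At an unadjusted p of 0.05, 1 member was called, the Tap2 probe set, against 5.63% of all tested probe sets. The differences, colonic minus bone marrow on the log2(intensity + 13.6) scale, were positive for 11 probe sets and negative for 11, with a median of -0.03 against 0.003 for all tested. They were under 0.3 in size for 16 of 22, a share that was not counted for all tested probe sets. The colonic and bone marrow arrays did not overlap for 3 members, each higher in colon, while 17.9% of all tested probe sets lay apart in that direction and 33.4% in either. The members' count is near the background for higher in colon and says nothing particular about them. Lower in colon, 0 of 22 lay apart, against 15.5% of all tested. These counts were not tested against the background. Only Tap2 differed by 1 or more on the log2 scale, as did 7.67% of all tested probe sets. In these bulk samples, fewer cells of a type and less RNA per cell cannot be told apart.

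**Figure D1:**
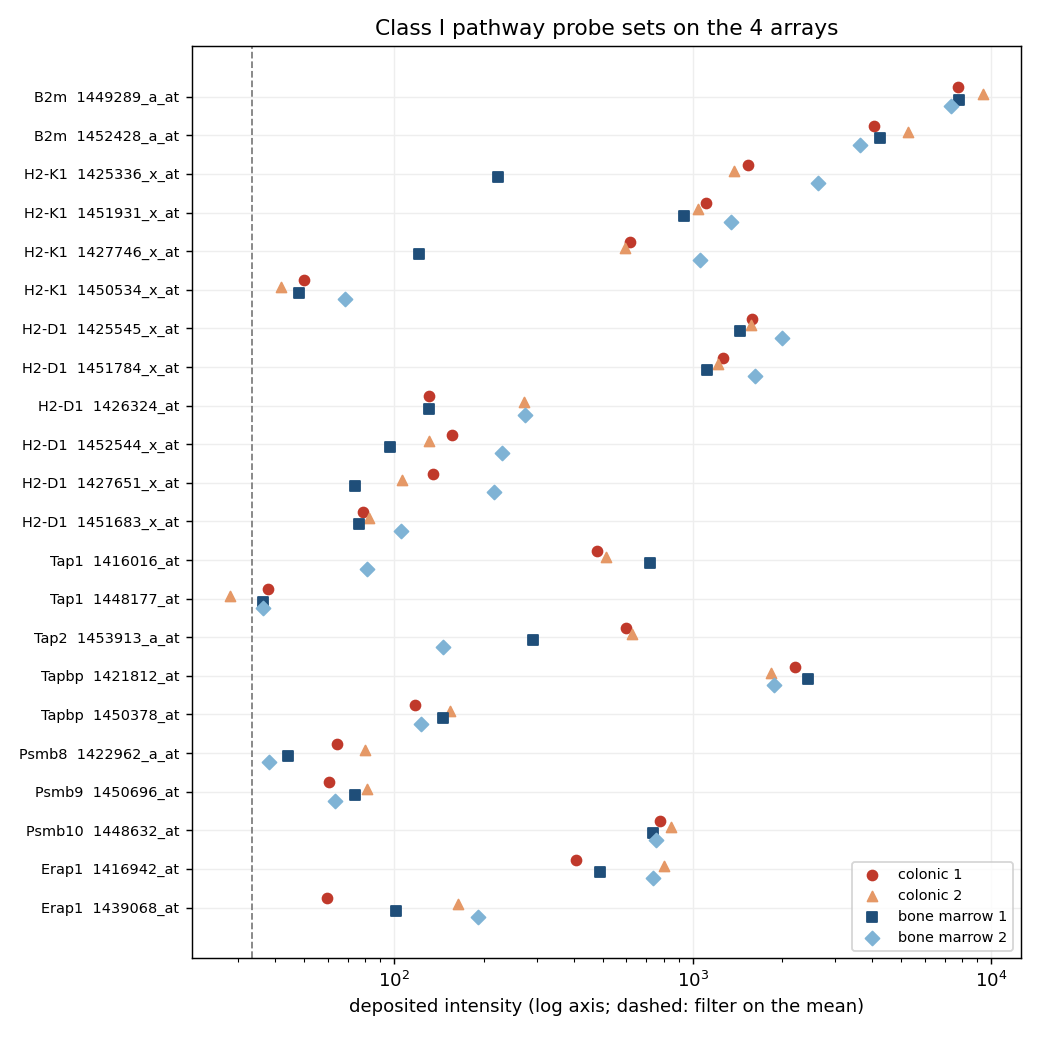
Intensity (log axis) of each of the 22 tested member probe sets on the 2 colonic and the 2 bone marrow arrays, 1 point per array. The tissues lie apart for 3 of 22 probe sets, and the widest gaps between the 2 bone marrow arrays belong to H2-K1 (222 and 2620.2) and Tap1 (722 and 80.9).

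The plot of intensities by array shows more spread between the bone marrow lines than between the tissues for several members. The bone marrow arrays stood 1 or more apart on the log2 scale for 5 of 22 members, as they did for 9.95% of all tested probe sets. The colonic arrays stood that far apart for 1 member, against 13.5% of all tested probe sets.

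The light chain B2m, which every class I molecule needs, was bright in all 4 lines. Its probe set 1449289_a_at read 7745 and 9381 on the colonic arrays, against 7795 and 7357 on the bone marrow arrays. The bone marrow arrays straddle the lower colonic array, so the groups overlap. The difference was 0.17 ± 0.13 (SE) on the log2 scale, with a limma adjusted p of 0.990. The other probe set, 1452428_a_at, read 4053 and 5282 in colonic MSC and 4231 and 3636 in bone marrow MSC, again overlapping, and its difference was 0.24 ± 0.20 (limma adjusted p = 0.990). Brightness depends on the probes, so it sets no order of RNA amounts between probe sets.

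The heavy chains H2-K1 and H2-D1 are close relatives, and the stretches before their starts are shown because they share most of their sequence and the motifs through which class I genes are induced. Both are from RefSeq on GRCm38.p6, 5′ to 3′ along the gene, for H2-K1 chr17:34000348-34000597 (minus strand) and for H2-D1 chr17:35262844-35263093 (plus strand). Capitals mark matches on either strand to the kappa B element of class I genes (the first capital run in each), AANNGAAA (bound by interferon regulatory factors), TGACG (the core of the X2 element bound by the CREB family) and CCAAT.
H2-K1: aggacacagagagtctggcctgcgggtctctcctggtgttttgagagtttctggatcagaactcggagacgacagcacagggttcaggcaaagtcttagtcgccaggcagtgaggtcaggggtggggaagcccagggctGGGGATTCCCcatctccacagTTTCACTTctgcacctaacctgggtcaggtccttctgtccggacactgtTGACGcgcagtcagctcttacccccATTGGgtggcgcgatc
H2-D1: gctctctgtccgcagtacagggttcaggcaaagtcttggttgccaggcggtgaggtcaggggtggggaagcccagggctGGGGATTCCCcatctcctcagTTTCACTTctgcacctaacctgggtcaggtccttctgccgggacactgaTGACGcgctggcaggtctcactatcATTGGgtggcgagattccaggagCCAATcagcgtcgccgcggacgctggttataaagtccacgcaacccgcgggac
Over the 190 bases that a global alignment placed side by side, the stretches shared 170, or 89.5%. Both held 1 kappa B match, 1 interferon regulatory factor match and 1 X2-like match, in that order, and H2-D1 held 2 CCAAT matches where H2-K1 held 1. No match overlapped another. Of 32851 RefSeq promoters cut to the same 250 bases, 0.0852% held the kappa B letters, 21.3% the interferon regulatory factor letters, 17.8% the X2-like letters and 33.8% CCAAT. A match is a description of letters and not evidence of binding. RefSeq promoters were found for 9 of the 10 members, all but Tap2. Among the 9, kappa B matches stood before 2 genes, interferon regulatory factor matches before 3 (B2m, H2-D1 and H2-K1), X2-like matches before 5 and CCAAT before 6.

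H2-K1 carried the widest disagreement between the bone marrow lines. Probe set 1425336_x_at read 1530.0 and 1371 in colonic MSC, against 222 and 2620.2 in bone marrow MSC. Bone marrow array 2 was 11.8 times bone marrow array 1, and both colonic arrays lay between them. A bone marrow gap that wide was found in 0.651% of all tested probe sets. The colonic mean was 1450.4 ± 113 and the bone marrow mean 1421 ± 1696 (SD, n = 2 each). The log2 difference of 0.89 ± 1.17 had a 95% interval of -2.17 to 3.96 (limma adjusted p = 0.990). The order of the tissues turned with the bone marrow line used, with a difference of -0.85 without bone marrow array 1 and 2.63 without bone marrow array 2.

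A second H2-K1 probe set, 1427746_x_at, gave the same picture. It read 618 and 596 in colonic MSC and 121 and 1059 in bone marrow MSC, where array 2 was 8.73 times array 1, a gap reached by 1.04% of all tested probe sets. Its difference of 0.71 ± 1.02 (limma adjusted p = 0.990) became -0.79 without bone marrow array 1 and 2.20 without array 2. The remaining H2-K1 probe sets disagreed with these on the size of the gap. Probe set 1451931_x_at read 1106 and 1039.6 in colonic MSC and 938 and 1349 in bone marrow MSC, with bone marrow array 2 only 1.44 times array 1. The dim 1450534_x_at read 49.9 and 41.7 in colonic MSC and 47.8 and 68.3 in bone marrow MSC. All 4 names end in x_at, the array maker's mark for probes that can match other transcripts. Class I heavy chains are nearly identical to each other over long stretches, so which heavy chain a signal came from is uncertain.

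For H2-D1, the brightest probe set, 1425545_x_at, read 1582 and 1564 in colonic MSC and 1443 and 1993 in bone marrow MSC. The next, 1451784_x_at, read 1263 and 1217 in colonic MSC and 1118 and 1615 in bone marrow MSC. In both, the bone marrow arrays bracket the colonic ones, and the log2 differences were -0.11 ± 0.27 and -0.12 ± 0.30 (limma adjusted p = 0.990 for each). The only tested H2-D1 probe set without the x mark, 1426324_at, read 131 and 273 in colonic MSC and 131 and 274 in bone marrow MSC. Each tissue thus had a low and a high line of nearly the same intensity, array 2 being the high one in both, and the difference was 0.00 ± 0.54. The other 3 (1452544_x_at, 1427651_x_at and 1451683_x_at) were dim and read 78.4 to 156 in colonic MSC and 74.0 to 229 in bone marrow MSC, with differences between -0.14 and -0.06.

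Across both heavy chains, bone marrow array 2 was the highest of the 4 arrays for 10 of 10 tested probe sets, and bone marrow array 1 was the lowest for 9 of them. Among all tested probe sets, 25.4% were highest on bone marrow array 2 and 6.63% showed both. The 10 are not independent, since probes of one heavy chain can bind RNA of the other. A probe set annotated to both H2-K1 and H2-D1, and therefore left out by the selection rule, read 576 and 529.7 in colonic MSC and 138 and 913 in bone marrow MSC. It had the same order of arrays as the bright H2-K1 probe sets.

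**Figure D2:**
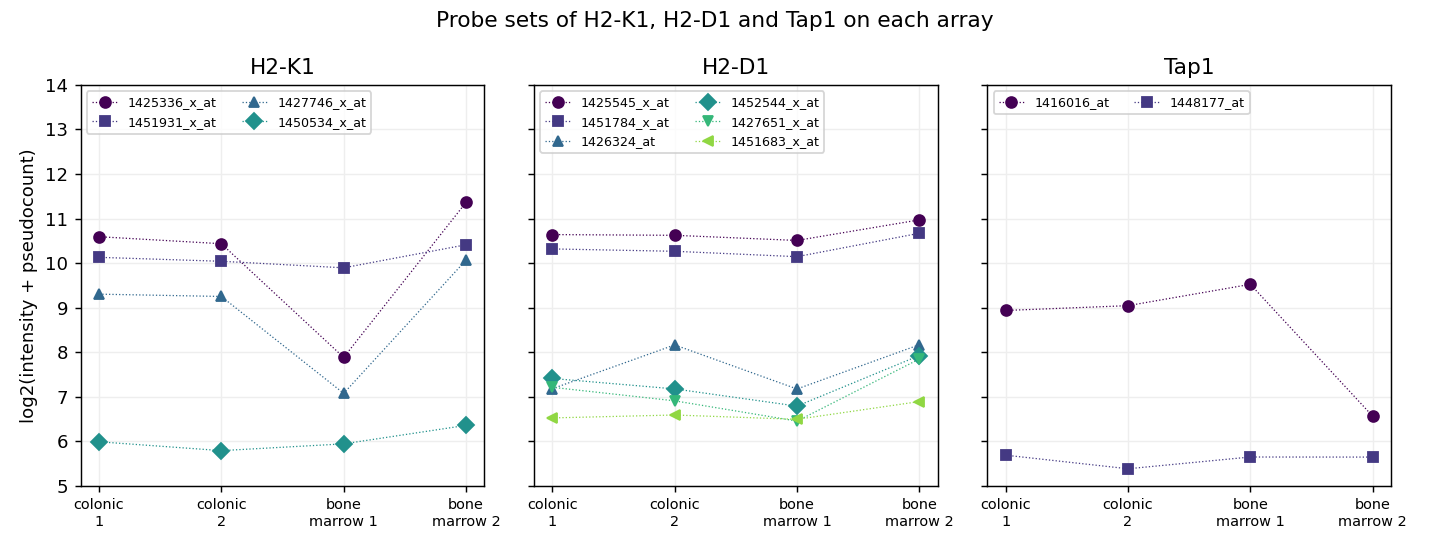
Level, as log2(intensity + 13.6), of the tested H2-K1, H2-D1 and Tap1 probe sets on the colonic arrays (left) and the bone marrow arrays (right); dotted lines join the values of 1 probe set. Bone marrow array 2 is the highest array for the 10 H2-K1 and H2-D1 probe sets and the lowest for the bright Tap1 probe set (intensity 80.9, against 722 on bone marrow array 1).

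Tap1, the first subunit of the peptide transporter, separated the bone marrow lines the other way round, as the plot of heavy chains beside Tap1 shows. Its bright probe set, 1416016_at, read 476 and 514 in colonic MSC and 722 and 80.9 in bone marrow MSC. Bone marrow array 1 was 8.93 times array 2, a gap reached by 1.05% of all tested probe sets, and the colonic arrays lay between. The log2 difference of 0.95 ± 1.01 had a 95% interval of -1.71 to 3.60 (limma adjusted p = 0.990), and it became 2.43 without bone marrow array 1 and -0.53 without array 2. The second tested probe set, 1448177_at, was close to the filter, at 37.9 and 28.1 in colonic MSC and 36.5 and 36.4 in bone marrow MSC. It did not show the gap between the bone marrow lines, and the remaining 2 Tap1 probe sets lay under the filter. Macrophage and leukocyte markers, 8 of 11 above the filter, summed to 1919.7 and 3045 in colonic MSC and 3562 and 1239 in bone marrow MSC. Within the bone marrow lines that sum was higher on array 1, where Tap1 was higher and the heavy chains lower, and its part in these results was not tested. The excess on bone marrow array 1 lay mainly in Lyz2, a lysozyme of myeloid cells, and Fcer1g, an Fc receptor subunit. Lyz2 read 150 and 590.5 in colonic MSC and 1589 and 31.7 in bone marrow MSC, and Fcer1g 43.2 and 59.6 in colonic MSC and 640 and 59.0 in bone marrow MSC. Cd53, a leukocyte tetraspanin, was instead highest in colon, at 155 and 1333 in colonic MSC and 13.98 and 15.7 in bone marrow MSC. Its bone marrow values lay under the filter, so Cd53 passed it only because of its colonic arrays. Csf1r, the macrophage growth factor receptor, read 143 and 121 in colonic MSC and 123 and 74.9 in bone marrow MSC, and Cd68, a macrophage marker, 74.0 and 55.8 in colonic MSC and 57.8 and 28.9 in bone marrow MSC. Ptprc, the pan-leukocyte marker, and Adgre1, a macrophage marker, lay below the filter, at most 32.1 on any array.

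Tap2, the partner subunit of Tap1, was the member with the widest difference between tissues. Its probe set, 1453913_a_at, read 597 and 626 in colonic MSC, against 292 and 146 in bone marrow MSC. Both colonic arrays lay above both bone marrow arrays, and the lower colonic array was 2.04 times the higher bone marrow array. The means were 612 ± 20.8 in colonic MSC and 219 ± 103 in bone marrow MSC (SD, n = 2 each). The difference of 1.50 ± 0.43 on the log2 scale had a 95% interval of 0.38 to 2.62 and did not pass the test (limma, adjusted p = 0.713, unadjusted p = 0.019). Over the alternatives its adjusted p ran between 0.481 and 1.0, and leaving out each array in turn gave differences of 1.03 to 1.97. With 2 arrays in each tissue the smallest p of an exact permutation test is 0.333. Endothelial markers, 3 of 5 above the filter, summed to 239 and 177 in colonic MSC and 132 and 100.4 in bone marrow MSC. Their part in the Tap2 values was not tested. Kdr, an endothelial growth factor receptor, read 91.1 and 68.9 in colonic MSC and 31.9 and 18.5 in bone marrow MSC. Tek, the angiopoietin receptor, read 43.55 and 42.2 in colonic MSC and 32.0 and 15.9 in bone marrow MSC, while Emcn overlapped between tissues. The bone marrow values of Kdr and Tek lay under the filter of 33.3. The other endothelial markers, Pecam1 and Cdh5, were below the filter, at most 2.48 and 24.2 on any array.

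Tap1 lies next to Psmb9 in the class II region of chromosome 17, and Psmb8 and Tap2 follow with no other coding gene between. The stretch between the starts of Psmb9 and Tap1, which run in opposite directions, is shown because both genes are read away from it. It is chr17:34187331-34187555, GRCm38.p6, plus strand, with capitals for the same motifs.
Psmb9 to Tap1: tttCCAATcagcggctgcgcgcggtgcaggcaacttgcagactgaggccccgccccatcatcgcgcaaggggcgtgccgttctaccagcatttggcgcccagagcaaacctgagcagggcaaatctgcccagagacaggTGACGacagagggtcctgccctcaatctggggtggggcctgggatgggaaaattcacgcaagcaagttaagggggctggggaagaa
These 225 bases held 0 kappa B matches, 0 interferon regulatory factor matches, 1 X2-like match and 1 CCAAT match. Of all promoters cut to 225 bases, 16.8% held the X2-like letters and 31.6% CCAAT. The absence of a match says only that these letters are not in this stretch. Psmb9, on the other side of the stretch, did not show the bone marrow gap of Tap1, with 74.1 and 63.4 on the bone marrow arrays. Tapbp and H2-K1 lie on the same chromosome before Psmb9, and H2-D1 lies after Tap2, while B2m is on chromosome 2, Psmb10 on chromosome 8 and Erap1 on chromosome 13.

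Tapbp, the tapasin gene, was bright in all lines. Probe set 1421812_at read 2205 and 1830.4 in colonic MSC and 2434 and 1875 in bone marrow MSC, with a log2 difference of -0.09 ± 0.26 (limma adjusted p = 0.990). The second probe set, 1450378_at, read 118 and 154 in colonic MSC and 145 and 123 in bone marrow MSC, with a difference of 0.01 ± 0.30. The tissues overlapped for both.

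None of the 3 immunoproteasome subunits passed the test. Psmb8, which replaces Psmb5, was dim, at 64.4 and 79.9 in colonic MSC against 44.15 and 38.05 in bone marrow MSC. Both colonic arrays lay above both bone marrow arrays, with a log2 difference of 0.64 ± 0.26 and an interval of -0.03 to 1.32 (limma adjusted p = 0.902). Psmb9, which replaces Psmb6, read 60.4 and 81.0 in colonic MSC and 74.1 and 63.4 in bone marrow MSC, and the tissues overlapped (0.03 ± 0.28, limma adjusted p = 0.996). Psmb10, which replaces Psmb7, was brighter, at 776 and 847 in colonic MSC against 734 and 752 in bone marrow MSC. Its arrays did not overlap, but the nearest ones differed only 1.03-fold, and the difference was 0.12 ± 0.29 (limma adjusted p = 0.990).

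Erap1, which trims peptides to the length class I molecules hold, varied within each tissue. Probe set 1416942_at read 406 and 803 in colonic MSC and 490.3 and 734 in bone marrow MSC. Probe set 1439068_at read 59.4 and 164 in colonic MSC and 102 and 191 in bone marrow MSC. Each tissue had a lower and a higher line in both probe sets, so the groups overlap. The higher one was array 2 in both tissues. The log2 differences were -0.07 ± 0.47 and -0.43 ± 0.56 (limma adjusted p = 0.994 and 0.990).

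**Figure D3:**
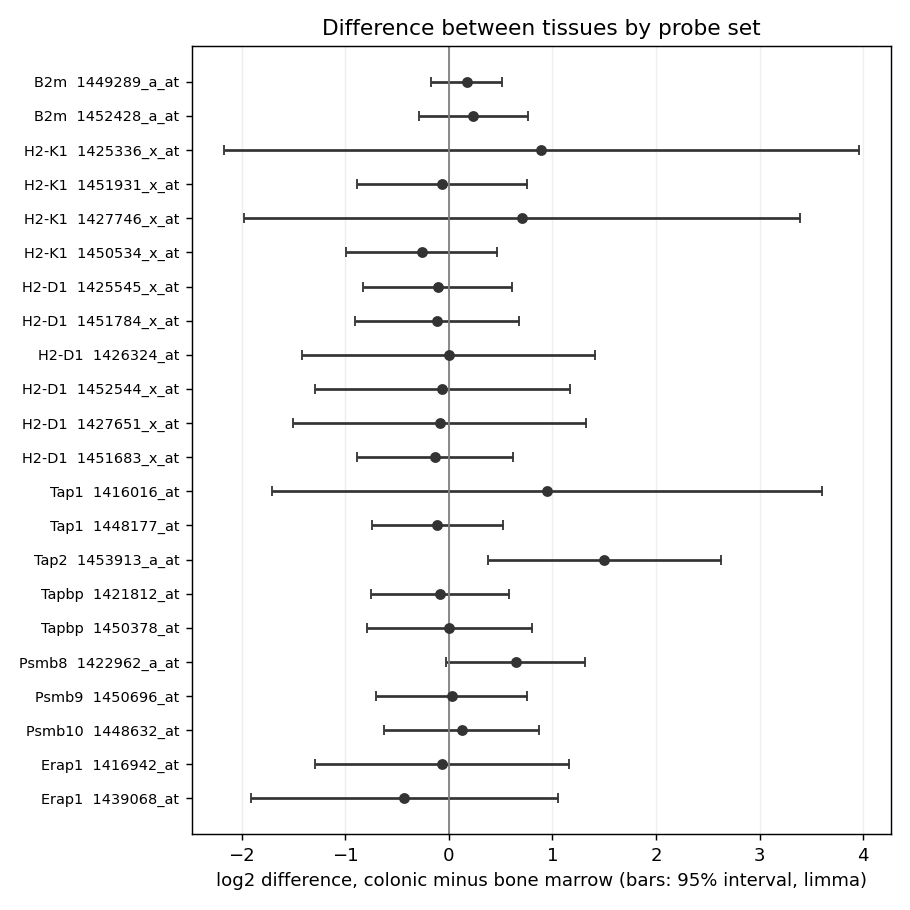
Log2 difference, colonic minus bone marrow, of the 22 tested member probe sets with 95% intervals from limma; the vertical line marks 0. The interval of Tap2 (0.38 to 2.62) is the only 1 that leaves out 0. Those of H2-K1 1425336_x_at and 1427746_x_at and of Tap1 1416016_at are the widest.

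The plot of differences shows the 2 forms in which members departed from 0. Tap2 and Psmb8, 2 of 22 members, differed between tissues by more than either tissue's own arrays did. The share of all tested probe sets that did so was not counted, so nothing particular to the members is read from it. For H2-K1 1425336_x_at and 1427746_x_at and Tap1 1416016_at, the log2 differences were 0.89, 0.71 and 0.95, with intervals that spanned both directions. The ratios of their mean intensities, colonic over bone marrow, were only 1.02, 1.03 and 1.23. The other tested probe sets of these genes differed by -0.07, -0.26 and -0.11.

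The rest of the pathway was read from lists of genes that work with the members. For a gene with several probe sets the one of lowest p is given, which favours wide differences. None of their 142 tested probe sets passed an adjusted p of 0.05 (limma, lowest adjusted p 0.159), and 17 were called at an unadjusted p of 0.05, against 5.63% of all tested probe sets. The loading partners, which fold and edit class I molecules, had 17 tested probe sets with a median log2 difference of 0.05, and 0 were called at an unadjusted p of 0.05. Calr, a chaperone of the loading complex, differed by 0.17 ± 0.12, and Ganab, a glucosidase subunit, by -0.47 ± 0.24. Pdia3, the disulfide isomerase of the complex, differed by 0.14 ± 0.10 and Prkcsh, the other glucosidase subunit, by 0.21 ± 0.17. Other peptidases of peptide supply had 16 tested probe sets with a median of 0.03. Their named members were Tpp2 (0.24 ± 0.25), Thop1 (-0.47 ± 0.42), Blmh (-0.14 ± 0.21) and Ide (-0.69 ± 0.29), all peptidases of the cytosol, and none was called at an unadjusted p of 0.05. The Ide value is that of a dim probe set (54.4 to 115 over the 4 arrays), and its other 4 probe sets differed by 0.035, -0.30, -0.27 and 0.069.

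The constitutive catalytic subunits, which the immunoproteasome subunits replace, were bright in every line. Psmb5 read 7177 and 6705 in colonic MSC and 7135 and 6129 in bone marrow MSC. The differences were 0.07 ± 0.13 for Psmb5, 0.14 ± 0.15 for Psmb6 and 0.21 ± 0.18 for Psmb7. The other core subunits had 22 tested probe sets, of which 18 were positive, with a median of 0.12 against 0.003 for all tested. At an unadjusted p of 0.05, 1 of them was called, Psma7, with a difference of 0.29 ± 0.11 (limma adjusted p = 0.878). The other named core subunits were Psma1 at 0.26 ± 0.12, Psma3 at 0.12 ± 0.08 and Psma6 at 0.17 ± 0.15. Among activators and assembly factors (15 probe sets, median 0.10), Psmg1, an assembly chaperone, read 2304 and 1659 in colonic MSC against 3401 and 3182 in bone marrow MSC. Its arrays did not overlap, and its difference was -0.75 ± 0.24 (limma adjusted p = 0.812). Pomp, the maturation protein, read 6745 and 5697 in colonic MSC and 5259 and 4489 in bone marrow MSC (0.35 ± 0.16, limma adjusted p = 0.962). Psme1, a subunit of the interferon-induced activator, read 1490.1 and 2233 in colonic MSC and 2439 and 1593 in bone marrow MSC, which overlap. Psme3, another activator subunit, differed by 0.29 ± 0.31. Psmg2, the partner of Psmg1, differed by 0.27 ± 0.23 on a dim probe set (28.4 to 43.2 over the 4 arrays), while its bright probe sets differed by -0.22 ± 0.23 and -0.09 ± 0.26.

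The other class I heavy chains had 11 tested probe sets, a median difference of 0.11, and 2 called at an unadjusted p of 0.05, both of Hfe and both lower in colon (2.47% of all tested were called in that direction). Hfe, the heavy chain relative that controls iron uptake, read 54.5 and 66.9 in colonic MSC against 265 and 179 in bone marrow MSC. Its arrays did not overlap, and the difference of -1.64 ± 0.33 did not pass the test (limma adjusted p = 0.449). Cd1d1, which presents lipids, read 277 and 463 in colonic MSC and 204 and 216 in bone marrow MSC (0.73 ± 0.38, limma adjusted p = 0.981). H2-M3, which presents formylated peptides, read 666 and 452 in colonic MSC and 637 and 253 in bone marrow MSC, and its tissues overlapped. Fcgrt, the Fc receptor relative, differed by -0.39 ± 0.36 and overlapped likewise.

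Of 16 class II probe sets, 4 passed the filter. H2-Ab1, a class II beta chain, read 152 and 10.2 in colonic MSC and 1.0 and 8.87 in bone marrow MSC, so that 1 colonic array carried the signal. H2-DMa, a class II loading factor, read 320.0 and 50.9 in colonic MSC and 99.8 and 26.2 in bone marrow MSC, again highest on colonic array 1. Cd74, the invariant chain, read 29.9 and 19.5 in colonic MSC against 60.6 and 43.1 in bone marrow MSC (-0.77 ± 0.28, limma adjusted p = 0.875). The colonic values of Cd74 lay under the filter, so it was tested only because of its bone marrow arrays. The size of its difference is likewise uncertain. H2-DMb2 read between 57.4 and 67.5 on all 4 arrays. Epithelial markers, 4 of 6 above the filter, summed to 1133 and 152 in colonic MSC and 176 and 243 in bone marrow MSC. Krt20, a keratin of gut epithelium, read 889 on colonic array 1, where H2-Ab1 and H2-DMa were highest, and its part in these values was not tested. Krt18 read 125 and 28.3 in colonic MSC and 45.1 and 102 in bone marrow MSC, and the tested probe sets of Krt8 and Cdh1 read between 27.5 and 44.8 on all arrays. The other epithelial markers, Epcam and Vil1, were below the filter, at most 19.6 and 25.6 on any array.

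**Figure D4:**
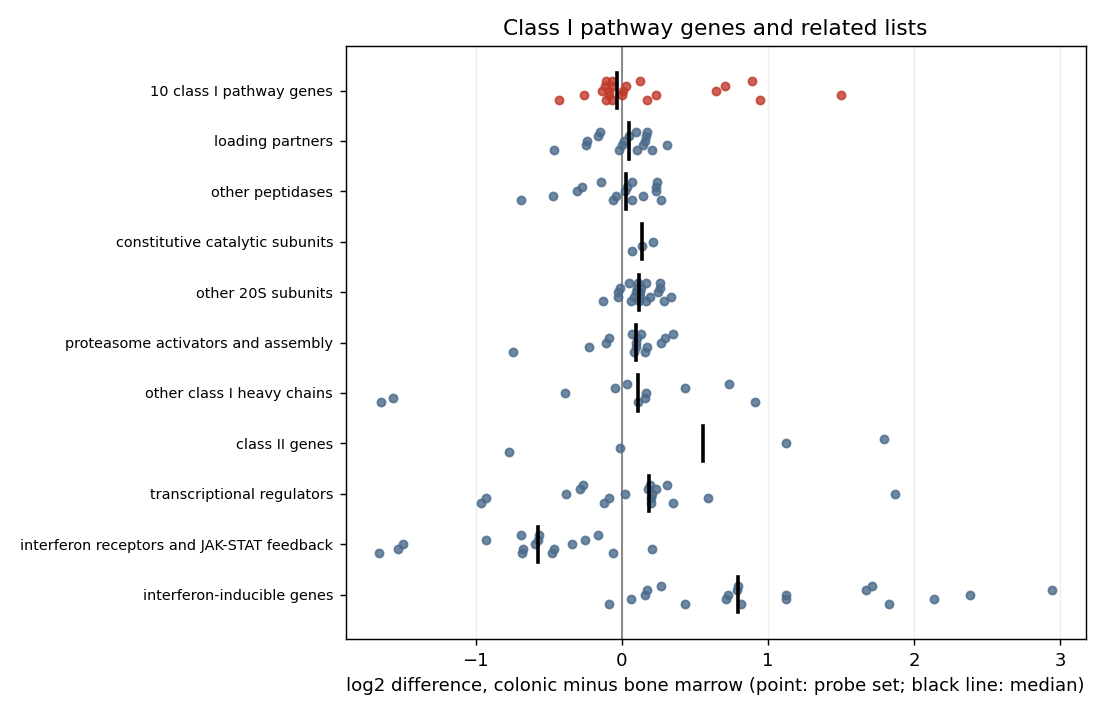
Log2 difference, colonic minus bone marrow, of each tested probe set (points) by gene list, with the median of each list. The members' median is -0.03, that of the interferon-inducible genes 0.79 and that of the interferon receptors and feedback genes -0.58.

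None of the transcriptional regulators of class I and interferon genes passed the adjusted test. Nlrc5, the class I transactivator, read 30.3 and 20.6 in colonic MSC against 83.8 and 42.5 in bone marrow MSC. Its arrays did not overlap, and the difference was -0.93 ± 0.36 (limma adjusted p = 0.892). The colonic values of Nlrc5 lay under the filter, so it was tested only because of its bone marrow arrays. The size of its difference is therefore uncertain. Irf1, which binds class I and Tap1 promoters, read 447 and 1534 in colonic MSC and 1871 and 1429 in bone marrow MSC (-0.97 ± 0.64, limma adjusted p = 0.990). Ciita, the class II transactivator, read 64.3 and 70.1 in colonic MSC and 63.2 and 41.9 in bone marrow MSC. Irf7, an amplifier of the type I interferon response, was the only regulator called at an unadjusted p of 0.05. It read 236 and 291 in colonic MSC against 65.6 and 58.2 in bone marrow MSC, with a difference of 1.87 ± 0.29 (limma adjusted p = 0.261). Irf9, part of the type I interferon factor, differed by 0.59 ± 0.33, and Rela, an NF-kappa B subunit, by -0.26 ± 0.14. The regulator list had 18 tested probe sets with a median of 0.19.

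Interferon-inducible genes outside the pathway had a positive difference in 18 of 19 tested probe sets. Their median log2 difference was 0.79, against 0.003 for all tested. The 19 probe sets belong to 17 genes, so they are not all independent. Of the 19, 7 were called at an unadjusted p of 0.05, all higher in colon, against 3.16% of all tested probe sets, and 0 passed the adjusted test. Usp18, which restrains interferon signalling, read 145 and 261 in colonic MSC against 12.9 and 14.1 in bone marrow MSC (2.94 ± 0.35, limma adjusted p = 0.159). Its bone marrow values lay under the filter of 33.3, so it was tested only because of its colonic arrays, and the size of its difference is uncertain. Bst2, the tetherin gene, read 992 and 1518 in colonic MSC against 153 and 463 in bone marrow MSC (2.14 ± 0.61, limma adjusted p = 0.713). Ifih1, a sensor of viral RNA, read 865 and 1185 in colonic MSC against 374 and 240.2 in bone marrow MSC (1.71 ± 0.38, limma adjusted p = 0.548). Igtp, an interferon-induced GTPase, read 342 and 668 in colonic MSC against 181 and 109 in bone marrow MSC (1.68 ± 0.48, limma adjusted p = 0.713). Both colonic arrays lay above both bone marrow arrays for 10 of the 19 probe sets, against 17.9% of all tested. These 4 genes are among them, but they were picked by lowest p, which favours arrays that lie apart.

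Within this list bone marrow array 2 was the lowest of the 4 arrays for 11 of 19 probe sets and bone marrow array 1 for 7. For bone marrow array 2 that is 57.9% of the list, against 29.7% of all tested probe sets. Among all tested probe sets, 8021 were lowest on bone marrow array 2 and 5349 on array 1, so array 2 led array 1 there too. The list's mean level, centred over the 4 arrays on the log2 scale, was 0.36 and 0.68 in colonic MSC and -0.21 and -0.83 in bone marrow MSC. The bright Tap1 probe set was likewise lowest on bone marrow array 2, while the H2-K1 and H2-D1 probe sets were highest there.

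**Figure D5:**
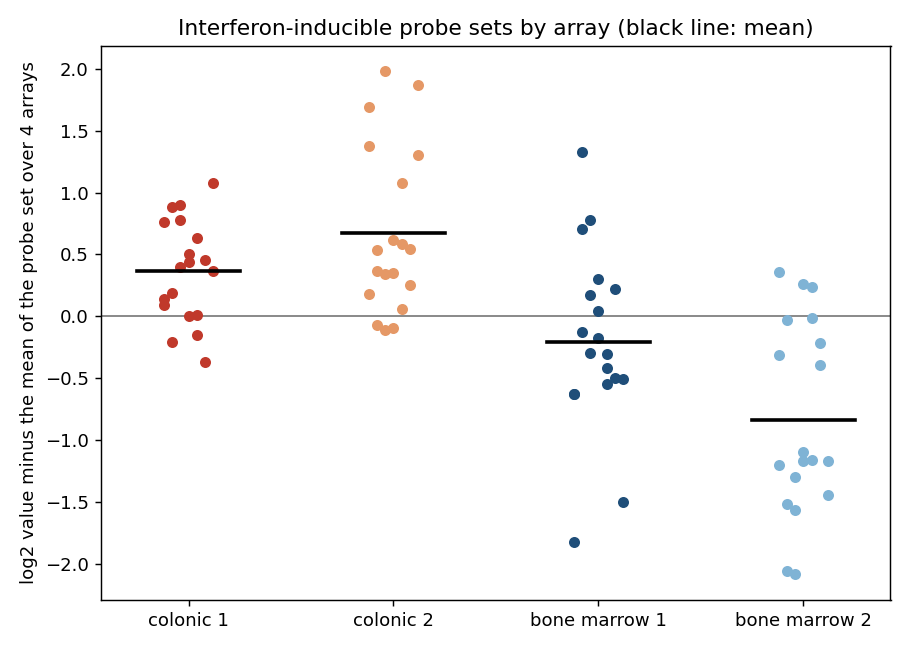
Level of the interferon-inducible probe sets on each array, log2(intensity + 13.6) centred on each probe set's mean, colonic arrays left and bone marrow arrays right. The list's mean is 0.36 and 0.68 on the colonic arrays and -0.21 and -0.83 on the bone marrow arrays.

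Interferon receptors and the genes of their JAK-STAT signalling and feedback lay on the other side, as the plot of lists shows. Of 17 tested probe sets 16 were negative, with a median of -0.58 against 0.003 for all tested. At an unadjusted p of 0.05, 4 were called, all lower in colon, against 2.47% of all tested. Of the 4, 1 belongs to Ifngr1 and 3 to Socs3. Ifngr1, a subunit of the interferon gamma receptor, read 2277 and 2082 in colonic MSC against 3866 and 4486 in bone marrow MSC (-0.93 ± 0.19, limma adjusted p = 0.459). Socs3, a feedback inhibitor of cytokine signalling, read 503 and 1044 in colonic MSC against 2130.4 and 2114 in bone marrow MSC (-1.53 ± 0.42, limma adjusted p = 0.701). The type I receptor subunits Ifnar1 and Ifnar2 differed by -0.48 ± 0.24 and -0.69 ± 0.39. The tissues did not overlap for the Ifngr1 probe set or the 3 Socs3 probe sets, while 1 tested probe set each of Ifnar1 and Ifnar2 overlapped. The Ifnar1 value is that of a dim probe set (27.5 to 49.8 over the 4 arrays), and its bright probe set 1449026_at differed by -0.34 ± 0.37. Several of the 17 probe sets share a gene, so they are not independent.

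Averaged over the 10 genes, with the brightest probe set of each, the members' level centred over the 4 arrays was 0.12 and 0.29 in colonic MSC and -0.19 and -0.21 in bone marrow MSC. Over all 22 tested member probe sets it was 0.004 and 0.16 in colonic MSC and -0.28 and 0.11 in bone marrow MSC, so the sign on bone marrow array 2 turned with the probe sets used. The likeness below uses the brightest probe set of each gene. Of 12920 genes, the 5 with the smallest root mean square distance to that profile were Piwil2 (0.0192), Gna12 (0.0257), Ccne2 (0.0261), Gprin1 (0.033) and Cnbd2 (0.0336), on the log2 scale over 4 arrays.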

How the data were processed

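RNA of 4 MSC lines was amplified and biotin-labelled, per the labels' protocols, for Affymetrix MOE230.2 arrays. The deposited table holds linear intensities per probe set, judged from the values. How the authors summarised probes, corrected background and scaled the arrays is not given in the sources used here; their scaling was kept. Of 45101 probe sets, 64 array controls were left out; 34945 had 1 symbol, 932 several and 9160 none. The log2 scale used a pseudocount of 13.6, which is 0.25 of the overall median and understates ratios of dim probe sets. Probe sets with a mean above the 40th percentile (33.3) were tested each on its own, with limma 3.58.1 (lmFit, eBayes with trend, R 4.3.3) over all 4 arrays, tissue as the only term and Benjamini-Hochberg adjustment over 27022 probe sets. Residual degrees of freedom were 2 and prior ones 2.69. P-values are two-sided.

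Named were the tested member probe sets (those below the filter by their range), the 4 genes of lowest unadjusted p on each other list, Nlrc5, Irf1, Ciita and Psme1, and the 5 nearest profiles; Psme2 was not analysed here. Ptprc, Adgre1, Lyz2, Pecam1, Cdh5, Epcam, Vil1, Alcam, Vcam1, Nt5e, Col1a1 and Col1a2 were named beyond this rule, after their values were seen. The members and lists were chosen with earlier results of these data known. Alternatives were quantile normalization, median centring, other pseudocounts and filters, no trend, a robust fit, averaged or single probe sets per gene, an adjusted p of 0.1, the replicate number as a block and each array left out. The labels give no batch. The fit was tested on simulated data. Promoters were RefSeq's on GRCm38.p6, read with Python 3.11.15 and aligned with Biopython 1.88.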

Additional observations from a re-analysis of the deposited data

How the results depend on the processing

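The count of member probe sets past the test was 0 in every setting run, as was that of the pathway lists. Over all probe sets the count of 0 became 12 with the filter at the 60th percentile and 54 at an adjusted p of 0.1. It was 0 to 96 when 1 array was left out, 0 without either bone marrow array, 70 without colonic array 1 and 96 without colonic array 2. With the replicate block it was 0, and Tap2 had an adjusted p of 0.606; arrays of the same number share only that number (r = 0.139 of their deviations). Averaging the probe sets of each gene gives no value per probe set. Outside the leave-one-out settings 5 of 200 member values turned sign. H2-D1 1426324_at became -0.082 with quantile normalization and -0.019 with median centring, Tapbp 1450378_at -0.046 and -0.014, and Psmb9 -0.016 with quantile normalization. None of 403 values of pathway genes turned. The cause was not tested.

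Leaving out 1 array turned 16 of 22 member probe sets and 7 of 42 pathway genes. The ranges were -0.85 to 2.63 for H2-K1 1425336_x_at, -0.33 to 0.19 for 1451931_x_at and -0.79 to 2.20 for 1427746_x_at. For H2-D1 they were -0.34 to 0.12 (1425545_x_at), -0.38 to 0.15 (1451784_x_at), -0.50 to 0.50 (1426324_at), -0.63 to 0.50 (1452544_x_at), -0.79 to 0.61 (1427651_x_at) and -0.33 to 0.064 (1451683_x_at). Tap1 ran from -0.53 to 2.43 (1416016_at) and -0.26 to 0.042 (1448177_at), Tapbp from -0.28 to 0.10 (1421812_at) and -0.17 to 0.18 (1450378_at), and Psmb9 from -0.15 to 0.20. Erap1 ran from -0.55 to 0.41 (1416942_at) and -1.07 to 0.21 (1439068_at). Among pathway genes the ranges were -0.30 to 0.012 for Blmh, -0.041 to 0.18 for Psmb5, -0.42 to 0.19 for Psme1, -0.21 to 1.08 for H2-M3, -0.78 to 0.0093 for Fcgrt, -0.059 to 2.31 for H2-DMa and -0.11 to 0.086 for H2-DMb2. With 2 arrays a tissue, these fits take the spread of the lone array from the other tissue. No detection call or probe-level signal was used, so dim probe sets have no measured background.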
